A study of Rattus norvegicus with 6 samples.

Results

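The 5' fragments of glycine tRNAs were examined in small RNA sequencing libraries of rat muscle. A fragment was counted in the set when its sequence matched a mature nuclear tRNA of Gly-GCC, Gly-CCC or Gly-TCC exactly, began at position 1, 2 or 3 of that tRNA, and had no alignment to any mature tRNA outside these 3 anticodons. Of the 77567 distinct sequences in the deposited table, 252 met this rule. The rule uses sequence and position only, not read counts. By anticodon, 85 of the 252 matched Gly-GCC only, 71 matched Gly-CCC only, 47 matched both, and 49 matched Gly-TCC. Most were rare: 83 were seen in all 6 libraries, 55 in 1 library, and 118 had fewer than 10 reads in all.

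The comparison was between 3 libraries titled as experimental and 3 titled as control, all labelled as muscle of the inbred lewis strain of rat at an age of 6 to 8 weeks. The series title concerns acute rejection of vascularized composite allografts, which are transplants of several tissues at once, but what was done to the experimental animals is not stated in the labels. Elsewhere the labels speak of mouse skin and UV damage, against the organism and tissue given for every sample, so the groups rest on the titles alone. The labels do not tie the libraries to animals, so p-values here reflect the spread between libraries alone, and that spread may be technical. The table holds reads aligned to tRNAs and no messenger RNA, so the labelled tissue could not be checked against marker genes.

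Reads aligned to tRNAs numbered 876494, 1927269 and 1866227 in the experimental libraries, against 550004, 740627 and 316990 in the controls. Of these, 403084, 1010839 and 1051553 reads in the experimental and 326925, 425935 and 166537 in the control libraries were glycine 5' fragments. The experimental libraries were thus all deeper than the controls. More distinct members were seen in them, 189, 179 and 192 against 132, 118 and 100, and the part that depth has in that count was not tested. Shares of reads within a library are given below, and the widest 95% Wilson interval of any share by end position was 0.476 percentage points. Such intervals cover counting error only.

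Mature tRNAs fold into a cloverleaf whose anticodon sits in an exposed loop of unpaired bases. Ribonucleases, among them angiogenin in stressed mammalian cells, cut in or beside that loop and leave a 5' piece and a 3' piece. The 5' pieces of glycine tRNAs are among the most abundant tRNA fragments reported in mammalian tissues, blood and sperm. Where such a piece ends is the usual basis for calling it a shorter fragment or a cleavage product of the anticodon loop.

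The sequences below are those of the mature tRNAs that gave the fragments, from the deposited alignment table, in DNA letters and 5' to 3' with the CCA tail included. They are shown because the differences between them decide which fragment can be assigned to which tRNA, and the capitals mark the anticodon.
tRNA-Gly-GCC-1: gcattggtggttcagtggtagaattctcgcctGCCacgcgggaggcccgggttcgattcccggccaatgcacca
tRNA-Gly-GCC-2: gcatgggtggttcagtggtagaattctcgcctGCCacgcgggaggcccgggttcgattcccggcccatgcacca
tRNA-Gly-CCC-1: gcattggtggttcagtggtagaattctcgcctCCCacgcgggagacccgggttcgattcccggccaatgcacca
tRNA-Gly-CCC-2: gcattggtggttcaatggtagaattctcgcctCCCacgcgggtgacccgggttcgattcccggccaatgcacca
tRNA-Gly-CCC-4: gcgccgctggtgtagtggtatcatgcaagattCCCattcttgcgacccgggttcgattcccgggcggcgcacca
tRNA-Gly-TCC-1: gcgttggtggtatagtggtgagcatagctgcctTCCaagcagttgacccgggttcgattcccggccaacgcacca

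The files place Gly-GCC-1 at chr3:43183527-43183597 and Gly-GCC-2 at chr13:89442219-89442289. Gly-CCC-1 lies at chr2:198461976-198462046, Gly-CCC-2 at chr2:198562804-198562874, Gly-CCC-4 at chr4:118207496-118207566 and Gly-TCC-1 at chr2:198631647-198631718. Coordinates are as deposited, counted from 1. The build and strand are not given in the sources used here. All are whole tRNA genes. Of 22 precursor loci in the table, 7 belonged to GCC-1, and the 10 distinct mature glycine tRNAs shared these loci between them.

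Position 1 is the first base of the mature tRNA. The anticodon occupies positions 33 to 35 of the GCC and CCC tRNAs and 34 to 36 of the TCC tRNAs, and the loop runs from 31 to 37 and from 32 to 38 in them. GCC-1 and CCC-1 are identical until the anticodon itself, where they differ by G33C. GCC-2 and GCC-3 differ from GCC-1 in their 5' part by T5G alone, and CCC-2 and CCC-3 differ from CCC-1 by G15A alone. A fragment of GCC-1 that ends at position 32 or before is therefore also a fragment of CCC-1, while T5G sets GCC-2 and GCC-3 apart at every length. CCC-4 and the TCC tRNAs have 5' parts of their own.

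The fragments that carry the results differ by single bases at their 3' end. The most abundant lengths of the GCC-1 and CCC-1 fragment are given here with that end at position 30, 31, 32, 33 and 34, followed by 3 members from other gene copies, and the capitals again mark anticodon bases.
GCC-1/CCC-1 1-30: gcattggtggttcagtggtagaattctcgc
GCC-1/CCC-1 1-31: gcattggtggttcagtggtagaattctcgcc
GCC-1/CCC-1 1-32: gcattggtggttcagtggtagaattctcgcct
GCC-1 1-33: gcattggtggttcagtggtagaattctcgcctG
GCC-1 1-34: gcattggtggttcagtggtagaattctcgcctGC
GCC-2/GCC-3 1-33: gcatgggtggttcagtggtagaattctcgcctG
CCC-2/CCC-3 1-33: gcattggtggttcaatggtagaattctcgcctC
CCC-4 1-33: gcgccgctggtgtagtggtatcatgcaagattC

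Glycine 5' fragments made up 46.0%, 52.4% and 56.3% of the tRNA-aligned reads in the experimental libraries, against 59.4%, 57.5% and 52.5% in the control libraries. The groups overlapped. The means were 51.6% ± 5.23 in the experimental and 56.5% ± 3.56 in the control libraries (SD, n = 3 each), and the difference of -4.90 percentage points gave p = 0.2 in a two-sided exact permutation test. It was -2.10 points without experimental replicate 1 and -2.47 points with sequences of 1 mismatch added. With 3 libraries against 3, the smallest p this test can give is 0.1. In bulk muscle RNA, a change in the mix of cells and a change in the amount of fragment per cell cannot be told apart. Of all exact glycine reads on mature tRNAs, the 5' fragments were 99.4%, 99.7% and 99.8% in the experimental and 98.9%, 99.7% and 99.5% in the control libraries.

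The groups separated by where the fragments ended. In the control libraries most GCC and CCC 5' fragments ended at positions 30 and 31, the last stem base and the first loop base. In the experimental libraries a larger share ended at 32, 33 and 34, up to and into the anticodon. The share ending at position 32 or later was 65.6%, 63.7% and 42.0% in the experimental libraries, against 19.4%, 24.6% and 22.1% in the control libraries. The lowest experimental library stood above the highest control library. The means were 57.1% ± 13.1 in the experimental and 22.1% ± 2.60 in the control libraries (SD, n = 3 each; exact permutation p = 0.1, the smallest possible, adjusted p = 0.2 over 2 summary shares). Differences at the last base of a read were common: C31T amounted to 24.6% of the exact GCC-1/CCC-1 1-31 reads, and to 14.4% to 31.4% by library. Base 32 of these tRNAs is T, so a T added after base 31 would be counted as an end at 32. The part of added bases in these shares was not tested.

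Single positions lay on both sides of this difference. Position 31 took 17.2%, 28.4% and 42.0% of the GCC and CCC reads in the experimental libraries, against 51.1%, 61.8% and 43.7% in the control libraries. Position 30 took 3.29%, 6.97% and 10.4% in the experimental libraries, against 26.8%, 12.1% and 28.1% in the control libraries. Both shares were lower in every experimental library than in any control library, at position 31 by as little as 42.0% in experimental replicate 3 against 43.7% in control replicate 3.

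Position 32, the base before the anticodon, took 33.6%, 36.8% and 29.0% in the experimental libraries, against 13.97%, 17.2% and 15.6% in the control libraries. Position 33, the first anticodon base, took 13.7%, 8.79% and 8.12% in the experimental libraries, against 2.19%, 1.37% and 0.783% in the control libraries. Position 34, the middle anticodon base, took 10.03%, 16.1% and 3.48% in the experimental libraries, against 0.702%, 2.45% and 0.574% in the control libraries. All 3 shares were higher in every experimental library, and experimental replicate 2 was highest at 32 and 34 while experimental replicate 1 was highest at 33. Each of the positions 30 to 34 gave an exact permutation p of 0.1 and an adjusted p of 0.2 over 10 positions, so none passed a threshold of 0.05, which this design cannot reach.

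Ends beyond the middle of the anticodon overlapped between the groups. At position 35, the last anticodon base, the shares were 5.87%, 1.90% and 1.12% in the experimental libraries, against 1.98%, 2.85% and 3.50% in the control libraries, and the groups overlapped (exact permutation p = 1). Position 36 also overlapped, from 0.154% to 2.26% in the experimental and from 0.590% to 1.61% in the control libraries. Short of the loop, position 28 held 10.6% of the reads of experimental replicate 1, against 0.350% and 2.49% in the other experimental libraries and 0.864% to 3.25% in the control libraries. Experimental replicate 1 thus held both long and short fragments, and the share of glycine 5' reads of 30 to 35 nt was 83.6% in it, 98.8% and 94.1% in the other experimental libraries, and 92.1% to 97.6% in the control libraries. Ends anywhere in the loop made up 82.8%, 92.0% and 84.0% in the experimental libraries, against 70.6%, 86.4% and 65.8% in the control libraries, with overlap (exact permutation p = 0.3).

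**Figure D1:**
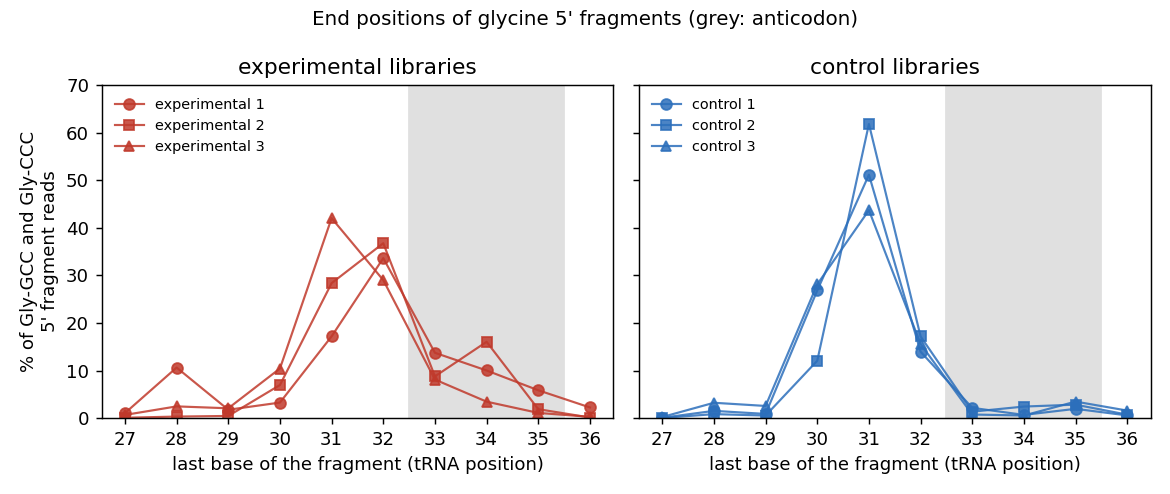
Share of GCC and CCC 5' fragment reads (percent, vertical axis) that ended at each tRNA position (horizontal axis), with a point for every library and the experimental libraries left of the control libraries. Positions 32 to 34 were higher in all 3 experimental libraries, for example 29.0% to 36.8% against 13.97% to 17.2% at position 32, and positions 30 and 31 were lower.

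The mean end of all glycine 5' fragments, counted from the first anticodon base, lay at -1.19, -0.99 and -1.65 nt in the experimental libraries, against -2.02, -1.74 and -2.03 nt in the control libraries. The groups did not overlap, with experimental replicate 3 nearest to the controls. The means were -1.28 ± 0.336 nt in the experimental and -1.93 ± 0.169 nt in the control libraries (SD, n = 3 each), a difference of 0.654 nt (exact permutation p = 0.1, adjusted p = 0.3 over 6 sets of fragments).

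The fragment types that the authors assigned in the deposited table follow from the ends. The type tiRNA-5, given to members that begin at position 1 and end at the first anticodon base, took 13.7%, 8.78% and 8.11% of the glycine 5' reads in the experimental libraries, against 2.16%, 1.37% and 0.777% in the control libraries. The type tRF-5c, given to fragments that begin at position 1 and end at positions 28 to 32, took 66.0%, 72.7% and 85.8% in the experimental libraries, against 93.2%, 92.2% and 92.9% in the control libraries. Neither type overlapped between the groups (exact permutation p = 0.1 each, adjusted p = 0.125 over 5 types). The GCC and CCC fragments that end at position 34 or 35 were typed as Other, a type that took 20.3%, 18.5% and 6.07% in the experimental and 4.62%, 6.38% and 6.28% in the control libraries and overlapped.

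Assignment to an anticodon followed length. Fragments matching Gly-GCC only made up 40.0%, 43.0% and 25.7% of the glycine 5' reads in the experimental libraries, against 23.4%, 13.0% and 10.7% in the control libraries. Fragments shared by GCC and CCC made up 59.0%, 55.9% and 73.8% in the experimental libraries, against 76.4%, 86.7% and 89.0% in the control libraries. Neither class overlapped (exact permutation p = 0.1 each), but the GCC-1 fragments leave the shared class only when they reach position 33, so both classes also measure where the fragments ended. Fragments matching Gly-CCC only were 0.914%, 1.04% and 0.488% in the experimental and 0.283%, 0.293% and 0.2996% in the control libraries, again without overlap. The CCC-1 fragments enter this class only when they reach position 33, so it too measures in part where the fragments ended.

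Among GCC-1 and CCC-1 fragments long enough to be told apart, the balance between the anticodons overlapped between the groups. With ends at position 34 or later, CCC-1 made up 0.874%, 0.814% and 0.745% in the experimental libraries, against 0.795%, 0.791% and 0.916% in the control libraries (exact permutation p = 0.7). With ends at 33 or later it made up 1.06%, 1.11% and 1.02% in the experimental and 1.11%, 0.842% and 1.03% in the control libraries (exact permutation p = 0.6). At position 33 the base that separates them is also the last base of the read, where single-base differences were common: G33A amounted to 13.7% of the exact reads of GCC-1 1-33, against 0.425% in GCC-1 1-34. In GCC-1 1-34, G33C, the change that makes CCC-1, stood at 0.899%, above G33A and above G33T at 0.104%. It was below G6T, which matches no glycine tRNA, at 2.14%. In GCC-1 1-35, G33C at 0.625% was also below G6T, at 1.52%. How many of the CCC-1 reads at these ends come from CCC-1 thus cannot be told apart from single-base differences of GCC-1 reads.

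The gene copies gave very unequal amounts of fragment. GCC-1 and CCC-1 together made up 89.7%, 80.7% and 86.0% of the glycine 5' reads in the experimental libraries, against 81.6%, 93.9% and 95.3% in the control libraries. GCC-2 and GCC-3 made up 9.64%, 18.5% and 13.6% in the experimental libraries, against 18.2%, 5.85% and 4.41% in the control libraries. Both overlapped, with control replicate 1 nearer to the experimental libraries than to the other controls (exact permutation p = 0.4 each).

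Rarer copies took larger shares in the experimental libraries. CCC-4 took 0.417%, 0.530% and 0.207% in the experimental libraries, against 0.135%, 0.136% and 0.135% in the control libraries. CCC-2 and CCC-3 took 0.173%, 0.232% and 0.156% in the experimental and 0.0899%, 0.0965% and 0.1003% in the control libraries. TCC took 0.106%, 0.0331% and 0.0227% in the experimental and 0.00795%, 0.00634% and 0.0132% in the control libraries. None of the 3 overlapped between the groups (exact permutation p = 0.1 each, adjusted p = 0.167 over 5 sets of copies), and the TCC difference of 0.0448 percentage points fell to 0.0188 without experimental replicate 1.

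The mean ends were also taken for each set of copies, and differences between the sets were not tested. In GCC-1 and CCC-1 the mean end lay at -1.08, -0.870 and -1.59 nt on the same scale in the experimental libraries, against -1.96, -1.72 and -2.02 nt in the control libraries, with no overlap. In GCC-2 and GCC-3 it lay at -2.27, -1.54 and -2.00 nt in the experimental and -2.33, -2.00 and -2.35 nt in the control libraries, with overlap (exact permutation p = 0.3). In CCC-2 and CCC-3 it lay at -0.451, -0.690 and -1.39 nt in the experimental and -1.89, -1.06 and -1.93 nt in the control libraries, also with overlap (exact permutation p = 0.2). The difference for GCC-2 and GCC-3 was 0.284 nt and fell to 0.0856 nt without experimental replicate 2, while that for GCC-1 and CCC-1 was 0.720 nt.

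The groups separated for GCC-2 and GCC-3 at single positions. Position 32 took 32.3%, 41.6% and 24.9% of their reads in the experimental libraries, against 6.74%, 16.02% and 13.4% in the control libraries. Position 33 took 7.22%, 6.84% and 4.26% in the experimental libraries, against 0.536%, 1.44% and 0.7495% in the control libraries. Neither position overlapped between the groups (exact permutation p = 0.1 each, adjusted p = 0.333 over 10 positions). In experimental replicate 1, however, 18.6% of the GCC-2 and GCC-3 reads ended at position 28, against 0.734% to 6.50% in the other 5 libraries.

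**Figure D2:**
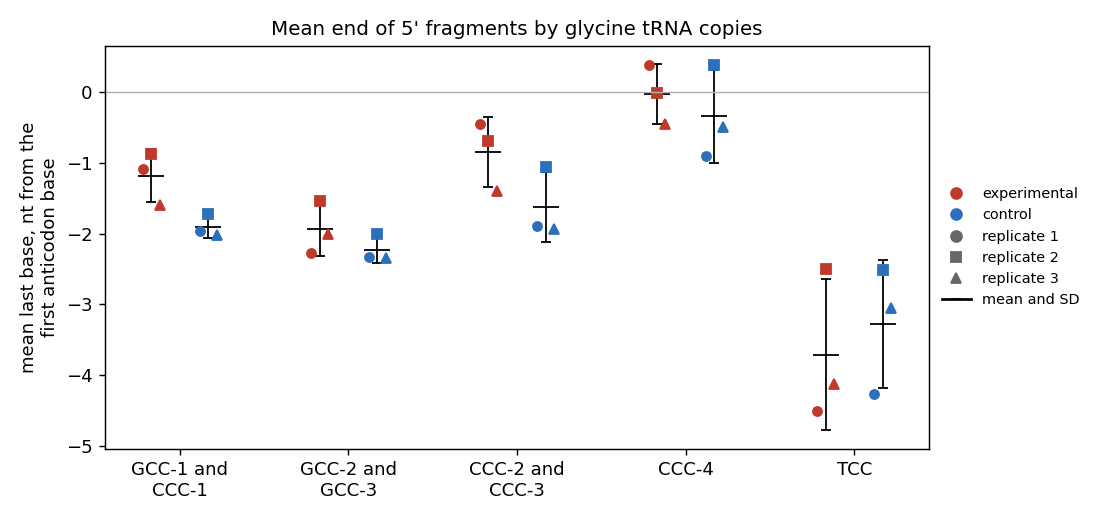
Mean 3' end of the 5' fragments of each set of glycine tRNA copies (nt from the first anticodon base, vertical axis), with a point per library and a bar for the group mean, experimental left of control. GCC-1 and CCC-1 separated the groups, at -1.59 to -0.870 nt in the experimental and -2.02 to -1.72 nt in the control libraries, and the other sets overlapped.

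A difference between the copies appeared in both groups at the middle of the anticodon. Of reads ending at position 33, GCC-2 and GCC-3 gave 5.13%, 15.1% and 7.25% in the experimental and 4.51%, 6.26% and 4.24% in the control libraries. Of reads ending at 34, 1 base further, they gave 0.603%, 1.503% and 0.804% in the experimental and 0.588%, 0.691% and 0.329% in the control libraries. The share was lower at 34 than at 33 in 6 of 6 libraries. At position 31 it had been 15.99%, 25.3% and 16.1% in the experimental and 20.4%, 6.33% and 5.03% in the control libraries.

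GCC-2 and GCC-3 are known from GCC-1 in these fragments by T5G alone, so the level of other single-base differences in the same fragments bears on that assignment. In fragments 1-31, T5G reads amounted to 19.2% of the exact GCC-1/CCC-1 reads, while the largest other inner substitution that matches no glycine tRNA, G6T, amounted to 1.36% and the median of 88 such substitutions to 0.0739%. In fragments 1-34, T5G amounted to 1.23%, below G6T at 2.14%. At end 31 the T5G reads thus stood far above such differences, and at 34 they did not, so how many of the reads of GCC-2/GCC-3 1-34 come from those genes cannot be told apart from single-base differences of GCC-1 reads. G15A, which marks CCC-2 and CCC-3, amounted to 0.1503% in fragments 1-31 and ranked 34 of 93, within the range of other differences. The same limit holds for those copies in fragments that end before the anticodon. Over all libraries, CCC-2/CCC-3 1-33 and 1-34 had 1036 and 735 reads, against 3137 and 2194 for CCC-1, which differs there by G15A alone. In GCC-1 1-33 and 1-34, G15A amounted to 0.0774% and 0.0668%. At those ends the CCC-2 and CCC-3 reads thus stood far above such differences of CCC-1 reads.

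CCC-4, whose 5' part is unlike the others and whose loop reads ttCCCat where GCC-1 has ctGCCac, was taken by itself. Its fragments ended at position 33, the first anticodon base, in 30.2%, 62.9% and 44.0% of its reads in the experimental libraries, against 15%, 19.2% and 3.13% in the control libraries. Ends at position 30 made up 0.297%, 0.952% and 1.195% in the experimental libraries, against 15.9%, 3.63% and 11.2% in the control libraries. Both separated the groups in the same directions as in GCC-1 (exact permutation p = 0.1 each, adjusted p = 0.2 over 10 positions).

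Position 31, the main end of the GCC-1 fragments in the control libraries, was nearly empty in CCC-4: 5 of 9211 reads in the experimental libraries and 0 of 1242 reads in the control libraries, which allows a share of up to 0.242%. Position 35 took 24.2%, 5.96% and 7.13% of its reads in the experimental libraries, against 21.4%, 37.2% and 37.5% in the control libraries, and the groups overlapped. The mean end of CCC-4 fragments lay at 0.384, -0.0084 and -0.454 nt in the experimental and -0.905, 0.384 and -0.5 nt in the control libraries, with overlap (exact permutation p = 0.4).

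TCC fragments were rare, with 1001 reads in the experimental and 75 in the control libraries. Their most frequent member, TCC-1 1-29, had 165, 5 and 38 reads in the experimental and 5, 3 and 1 in the control libraries. TCC-1 1-32 had 7, 133 and 39 reads in the experimental and 8, 8 and 12 in the control libraries, and TCC-1 1-30 had 132, 16 and 52 reads in the experimental and 1, 2 and 0 in the control libraries. Experimental replicate 1 held mostly the shorter fragments and experimental replicate 2 mostly the longer one. The mean end lay at -4.51, -2.50 and -4.13 nt in the experimental and -4.27, -2.52 and -3.05 nt in the control libraries, with overlap (exact permutation p = 0.8).

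The 5' end varied little. Of the glycine 5' reads, 99.2%, 99.8% and 99.7% began at position 1 in the experimental libraries, against 98.6%, 99.7% and 99.5% in the control libraries. Position 3 held 0.729%, 0.173% and 0.247% in the experimental and 0.972%, 0.225% and 0.366% in the control libraries, with overlap at both positions (exact permutation p = 0.6 each). The few reads that began at position 3 had their ends further from the anticodon in the experimental libraries, at -4.02, -1.93 and -3.33 nt, against -1.81, -1.75 and -1.04 nt in the control libraries. That difference of -1.56 nt ran opposite to that of the reads beginning at position 1, which was 0.666 nt, and neither set overlapped between the groups (exact permutation p = 0.1 each).

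Each distinct sequence was also compared by limma voom over the whole table, as CPM normalised by trimmed mean of M values factors. A sequence was tested when it reached about 10 reads in the median library in at least 3 libraries, which 71 of the 252 glycine 5' fragments did, and the others were too rare. Of 2226 sequences tested in the table, 18.7% were called higher and 7.64% lower in the experimental libraries (adjusted p under 0.05). Among the 71 glycine fragments, 16 rose, or 22.5%, and 2 fell, or 2.82%. The groups did not overlap for 27 of the 71, or 38.0%, against 40.7% of all sequences tested. The median log2 fold change was 0.32 for the 71 and 0.21 for all 2226. How the share called higher compared with the whole table varied with the sequences fitted: with exact matches only it was 21.1% of the glycine fragments against 9.74% of all sequences, and with no filter on low counts 16.7% against 2.72%.

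These calls rest on a spread that limma voom shares across sequences. With the spread of each sequence on its own, 0.674% of all sequences were called higher and 0.359% lower, and 0 glycine fragments were called in either direction. The called members named below then had limma voom adjusted p between 0.0675 and 0.207. At an unadjusted p under 0.05 with the shared spread, 19 of the 71 were higher and 6 lower, beside 548 and 282 of all 2226. Without control replicate 3, the library of lowest depth, 5 glycine fragments were called higher and 0 lower, and the share called higher was 6.02% of those tested, against 6.96% of all sequences. The scaling factors of experimental replicates 1 and 2 were 1.46 and 0.562, and scaling by library totals instead gave 11 higher and 1 lower, or 15.5% higher against 10.5% of all sequences. Under that scaling the median log2 fold change of all sequences was -0.0837 in place of 0.209.

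By end position, set beside the 18.7% of all sequences called higher, 5 of 6 fragments tested that end at position 33 rose, 3 of 7 ending at 34, and 2 of 7 ending at 32. Of the 8, 6, 7 and 7 tested with ends at 28, 29, 30 and 31, 0 were called by limma voom, and at an unadjusted p under 0.05 there was 1 higher at 29 and 3 lower at 30. At the short side, 2 fragments ending at 25, 2 ending at 26 and 2 ending at 27 were called higher. Most of these had few control reads and passed the filter through the experimental libraries, so their number supports nothing about those ends. At the anticodon, CCC-2/CCC-3 1-33, GCC-2/GCC-3 1-34 and CCC-2/CCC-3 1-34 also passed the filter through the experimental libraries. In control replicate 3 they had 0, 8.39 and 8.39 CPM. The counts at 33 and 34 include them and are limited in the same way. Both falls were at the long side, 1 of 7 ending at 35 and 1 of 5 ending at 36. The fall at 36 passed the filter through the control libraries, so it is limited in the same way.

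**Figure D3:**
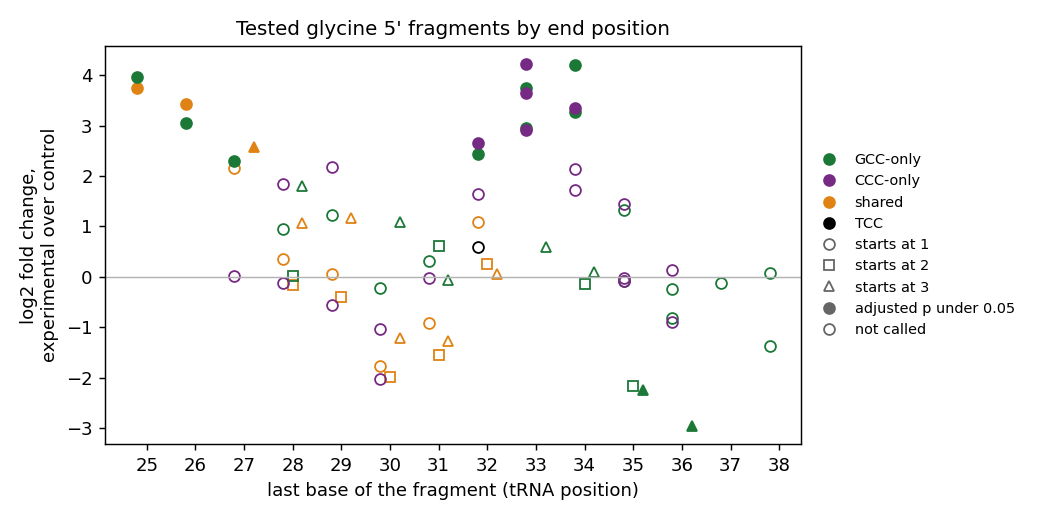
Fitted log2 fold change of each tested glycine 5' fragment (experimental over control, vertical axis) against the tRNA position of its 3' end (horizontal axis), with called members marked. Members ending at 33 reached 4.22 and those ending at 30 had a median of -1.21, and called members lay at the ends 25 to 27 and 32 to 34 above 0 and at 35 and 36 below 0.

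The 3 most abundant fragments, all shared by GCC-1 and CCC-1, did not pass the test. GCC-1/CCC-1 1-31, the most abundant fragment, had 49885, 205223 and 222027 CPM in the experimental libraries, against 253794, 319222 and 192360 CPM in the control libraries. The groups overlapped, and its log2 fold change of -0.93 ± 0.88 (SE) was not called (limma voom adjusted p = 0.459). GCC-1/CCC-1 1-32 had 105887, 281567 and 161255 CPM in the experimental libraries, against 79458, 89702 and 69686 CPM in the control libraries. Every experimental library stood above the controls, at a log2 fold change of 1.09 ± 0.88 (limma voom adjusted p = 0.376). GCC-1/CCC-1 1-30 had 9367, 50826 and 54877 CPM in the experimental libraries, against 131982, 63389 and 125742 CPM in the control libraries, all lower in the experimental ones (log2 fold change -1.78 ± 0.88, limma voom adjusted p = 0.122).

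GCC-1 1-33 and GCC-1 1-34, which end on the first and the middle anticodon base, rose. GCC-1 1-33 had 44237, 68068 and 46348 CPM in the experimental libraries, against 12692, 6888 and 3379 CPM in the control libraries. Every experimental library stood above every control library (log2 fold change 2.96 ± 0.88, limma voom adjusted p = 0.00587). GCC-1 1-34 had 33787, 151031 and 21282 CPM in the experimental libraries, against 3730, 13108 and 2428 CPM in the control libraries. Replicate 2 was highest in both groups and the lowest experimental library still exceeded the highest control (log2 fold change 3.28 ± 0.88, limma voom adjusted p = 0.00213). Without control replicate 3 neither was called (limma voom adjusted p = 0.178 and 0.12, log2 fold changes 2.05 and 2.34).

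GCC-1 1-35, which is 1 base longer and holds the whole anticodon, had 19568, 17445 and 6762 CPM in the experimental libraries, against 11741, 15044 and 15269 CPM in the control libraries. The groups overlapped, and the log2 fold change was -0.08 ± 0.88 (limma voom adjusted p = 0.96).

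GCC-2 and GCC-3, with T5G, gave these values at the same ends. Their fragment 1-31 had 9525, 69523 and 42654 CPM in the experimental libraries, against 65537, 21568 and 10207 CPM in the control libraries, and the groups overlapped (log2 fold change 0.32 ± 0.88, limma voom adjusted p = 0.822). Their fragment 1-32 had 10860, 75029 and 21462 CPM in the experimental libraries, against 7726, 5189 and 2752 CPM in the control libraries. It rose without overlap (log2 fold change 2.44 ± 0.88, limma voom adjusted p = 0.0273), and leaving out replicate 2 or 3 of either group ended that call (limma voom adjusted p between 0.0635 and 0.292).

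At the anticodon, GCC-2/GCC-3 1-33 had 2427, 12321 and 3670 CPM in the experimental libraries, against 616, 464 and 154 CPM in the control libraries. It rose, again with no overlap (log2 fold change 3.75 ± 0.88, limma voom adjusted p = 0.000358), and had a limma voom adjusted p of 0.0672 without control replicate 3. GCC-2/GCC-3 1-34 had 206, 2314 and 171 CPM in the experimental libraries, against 11.6, 89.7 and 8.39 CPM in the control libraries. It rose by a log2 fold change of 4.20 ± 0.93 (limma voom adjusted p = 0.000148) and was called without control replicate 3 too (limma voom adjusted p = 0.0291), with the limit on its assignment given above.

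The 3 tested CCC fragments that end on the first anticodon base rose as well. CCC-4 1-33 had 437, 3243 and 575 CPM in the experimental libraries, against 128, 144 and 19.6 CPM in the control libraries (log2 fold change 3.65 ± 0.89, limma voom adjusted p = 0.000624). CCC-1 1-33 had 588, 1284 and 564 CPM in the experimental libraries, against 205, 74.1 and 64.3 CPM in the control libraries (log2 fold change 2.90 ± 0.89, limma voom adjusted p = 0.0072). CCC-2/CCC-3 1-33 had 142, 572 and 143 CPM in the experimental libraries, against 36.8, 28.6 and 0 CPM in the control libraries (log2 fold change 4.22 ± 0.96, limma voom adjusted p = 0.000237).

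None of these 3 overlapped between the groups, and experimental replicate 2 was the highest library for each. Without control replicate 3 none of the 3 was called, at limma voom adjusted p of 0.121 for CCC-4, 0.154 for CCC-1 and 0.124 for CCC-2/CCC-3, and their log2 fold changes were 2.35, 2.17 and 2.35. CCC-1 1-33 was also not called without control replicate 2 (limma voom adjusted p = 0.0514). It differs from GCC-1 1-33 in its last base, and its reads (G33C) amounted to 1.48% of the GCC-1 1-33 reads, below G33A at 13.7% and G33T at 2.15%, so they cannot be told apart from last-base differences of GCC-1 1-33. At the next base, CCC-4 1-34 had 395, 1076 and 245 CPM in the experimental libraries, against 161, 161 and 112 CPM in the control libraries, without overlap and not called (log2 fold change 1.72 ± 0.88, limma voom adjusted p = 0.138).

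Of the other fragments called higher, CCC-2/CCC-3 1-34 (log2 fold change 3.35 ± 0.95, limma voom adjusted p = 0.00379) and CCC-4 1-32 (2.655 ± 0.92, limma voom adjusted p = 0.01995) ended at or beside the anticodon. The rest lay well short of it, at position 25 to 27, and were of low abundance. Most of the rest were tested because of their level in the experimental libraries. GCC-1/CCC-1 1-26 (42.6, 15.6 and 47.6 CPM) and GCC-2/GCC-3 1-27 (161, 42.9 and 145 CPM) reached the filter in the control libraries too. GCC-1/CCC-1 1-25 had 395, 38.5 and 317 CPM in the experimental libraries, against 27.1, 3.90 and 16.8 CPM in the control libraries. The lowest experimental library, replicate 2, stood just above the highest control (log2 fold change 3.74 ± 0.96, limma voom adjusted p = 0.00112), and without experimental replicate 1 or with scaling by library totals it was not called (limma voom adjusted p = 0.0654 and 0.0971). GCC-2/GCC-3 1-25 had 87.4, 34.7 and 80.0 CPM in the experimental libraries, against 1.94, 2.60 and 5.59 CPM in the control libraries, which are 1, 2 and 2 reads. All 3 controls stood below 3 reads, so its call by limma voom (adjusted p = 0.000832) rests on the experimental libraries and gives no usable fold.

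The 2 falls were fragments that lack the first 2 bases and end at the last anticodon base or just beyond it. GCC-1 3-35 had 77.9, 61.7 and 28.9 CPM in the experimental libraries, against 343, 104 and 436 CPM in the control libraries. All experimental libraries were lower (log2 fold change -2.25 ± 0.88, limma voom adjusted p = 0.0432), and the call did not hold when experimental replicate 2 or 3 or control replicate 1 or 3 was left out (limma voom adjusted p between 0.0825 and 0.279), with scaling by library totals (0.0588), with no filter (0.0765) or with the replicate block (0.0737). GCC-1 3-36, named after its values were seen, had 8.65, 4.82 and 2.41 CPM in the experimental libraries, against 48.4, 16.9 and 72.7 CPM in the control libraries (log2 fold change -2.96 ± 0.99, limma voom adjusted p = 0.0149). It lay below the filter on low counts in the experimental libraries, so it was tested because of its level in the control libraries. For TCC, the only member tested was TCC-1 1-32, at 6.06, 128 and 23.5 CPM in the experimental and 15.5, 10.4 and 33.6 CPM in the control libraries, with overlap (log2 fold change 0.59 ± 0.95, limma voom adjusted p = 0.685).

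The end shift was set against the 5' fragments of other amino acids, chosen in the same way. Lysine fragments ended at a mean of -0.441, -0.184 and -0.747 nt in the experimental libraries, against -1.15, -0.776 and -1.26 nt in the control libraries. Glycine minus lysine was -0.751, -0.806 and -0.899 nt in the experimental and -0.874, -0.960 and -0.771 nt in the control libraries, so the distance between them overlapped between the groups. The difference in that distance was 0.0495 nt (-0.819 ± 0.0750 nt in the experimental and -0.868 ± 0.0947 nt in the control libraries, SD, n = 3 each; exact permutation p = 0.6, adjusted p = 0.6 over 5 amino acids).

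For glutamic acid the difference lay the other way. Its fragments ended at -1.34, -0.822 and -1.97 nt in the experimental libraries, against -0.136, 2.05 and 1.65 nt in the control libraries. Glycine minus glutamic acid was 0.152, -0.168 and 0.328 nt in the experimental and -1.89, -3.79 and -3.69 nt in the control libraries, without overlap, a difference of 3.22 nt (exact permutation p = 0.1, adjusted p = 0.167). The experimental libraries thus had glycine and glutamic acid fragments ending at nearly the same mean distance from the anticodon, while in the control libraries the glycine fragments ended earlier.

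For histidine and valine the distance from glycine also separated the groups, and for aspartic acid it overlapped. The distance from glycine to histidine was 1.07 nt larger in the experimental libraries and that to valine changed by -5.02 nt, both without overlap (exact permutation p = 0.1, adjusted p = 0.167 each), and that to aspartic acid changed by 0.573 nt with overlap (exact permutation p = 0.4). Valine fragments themselves ended at -5.74, -3.99 and -6.53 nt in the experimental libraries, against -10.5, -10.2 and -12.6 nt in the control libraries. Aspartic acid and valine fragments were few, with 31 to 129 and 138 to 476 reads per control library. By limma voom, 11 of 28 lysine fragments tested (39.3%), 6 of 16 of histidine (37.5%) and 8 of 12 of valine (66.7%) rose. For glutamic acid 9 of 40 (22.5%) rose, for aspartic acid 1 of 5 (20%) and for glycine 16 of 71 (22.5%). Of all sequences tested, 18.7% were called higher, near the shares of glutamic acid, aspartic acid and glycine.

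**Figure D4:**
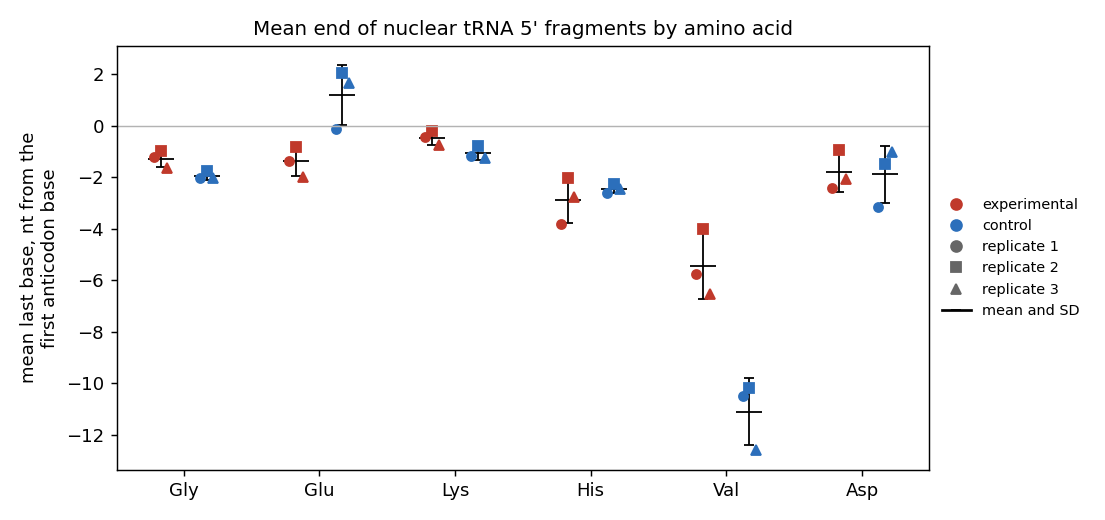
Mean 3' end of the 5' fragments of each amino acid's nuclear tRNAs (nt from the first anticodon base, vertical axis), a point per library with experimental left of control and bars at the group means. Glycine, lysine and valine lay further 3' in the experimental libraries, by 0.654, 0.605 and 5.68 nt, and glutamic acid lay further 5', by -2.57 nt.

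Reads of the 3' pieces of the same tRNAs were rare. Adapters were ligated with no treatment of RNA ends stated, so these reads may not measure how abundant the pieces were. How fully such pieces were captured was not tested. Reads that began in the anticodon loop or at the base after it, and reached at least the base before the CCA tail, numbered 174, 143 and 122 in the experimental libraries, against 76, 59 and 22 in the control libraries. The table lists reads of 14 to 40 nt, so a piece with its whole CCA tail that begins before position 35 cannot be listed. As CPM of tRNA-aligned reads they stood at 199, 74.2 and 65.4 in the experimental and 138, 79.7 and 69.4 in the control libraries, with overlap (exact permutation p = 0.9). The log2 ratio of 5' reads ending at the last stem base or in the loop to these 3' reads was 10.96, 12.77 and 12.99 in the experimental and 12.03, 12.80 and 12.79 in the control libraries, also with overlap (exact permutation p = 0.8).

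These 3' reads came mostly from CCC-4, a copy with few 5' fragments. CCC-4 gave 455 of 596 such reads, or 76.3%, with 134, 109 and 97 in the experimental and 58, 37 and 20 in the control libraries. The GCC tRNAs and CCC-1 to CCC-3 gave 141, and TCC gave 0. For each 3' read, CCC-4 had 11.5, 47.7 and 20.5 such 5' reads in the experimental libraries and 6.14, 14.2 and 8.55 in the control libraries. The GCC tRNAs and CCC-1 to CCC-3 had 22870 over all libraries. Most of their 5' fragments end before position 34, where a matching 3' piece with its CCA tail would be too long to be listed, while 18.3% to 27.2% of the CCC-4 reads of a library end at 34 and 5.96% to 37.5% at 35. The part of this length limit in the difference was not tested.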

How the data were processed

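Small RNA reads of 6 muscle libraries were analysed from the series' table of tRNA alignments. The deposited values are raw read counts per distinct sequence and library, per the file headers; the authors collapsed reads to sequences of 14 to 40 nt and aligned them, allowing 1 mismatch, to the mature and precursor forms of tRNAs, per the file headers. Per the labels' protocols, a small RNA kit that ligates adapters was used, with no treatment of RNA ends stated. The aligner is not given in the sources used here, and the submitters' processing notes name mm9, a mouse build, for rat samples. Lines of text lie between the count lines, so the count columns entered as another type of value and limma voom was the test.

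Each sequence was counted once. For shares and mean ends the test was a two-sided exact permutation of libraries. Counts were fitted with limma 3.58.1 voom in R 4.3.3 over all sequences kept by the low-count filter, with trimmed mean of M values factors, no covariate and Benjamini-Hochberg adjustment at 0.05. The fit was run on simulated data with large changes as a check of its working, not of the calls given here. Members were named if among the 8 most abundant, the 3 most abundant of a class, or the 5 largest called rises or falls without overlap where the higher group reached 50 CPM; of TCC only 1 member was tested. Some members outside this naming rule were named after their values were seen. Members, lists and tests were chosen with earlier results of these data known. Alternatives were another scaling, no filter, each sequence's own spread, an abundance trend, exact matches only, a replicate block and leaving out each library. Exact matches held 67.4% to 74.9% of the glycine 5' reads when sequences with 1 mismatch were added. Depth is given with the results.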

Additional observations from a re-analysis of the deposited data

How the results depend on the processing

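The direction of the end shift and of the class shares was the same under every alternative run. The difference in mean end of all glycine 5' fragments ranged from 0.511 to 0.839 nt as each library was left out, and that in the share ending at position 34 from 5.51 to 11.8 percentage points. The 16 members called higher by limma voom were 14 with median-of-ratios factors, 11 with library totals, 42 of 252 with no filter on low counts, 15 with exact matches only, 0 with each fragment's own spread, and 5 to 24 as each library was left out. The share of all sequences called higher moved too, to 16.4%, 10.5%, 2.72%, 9.74% and 0.674% under these settings and to between 6.96% and 21.2% with a library left out. The 2 called lower were 3 with median-of-ratios factors or no filter, 1 with library totals, 0 with each fragment's own spread, and 0 to 4 with a library left out. Without a filter, rare sequences enter the fit, and with 2 libraries in a group the test has fewer samples; the cause of the other changes was not tested.

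Same-numbered libraries did not deviate together: over 2821 sequences the correlations of their deviations were -0.245, -0.0473 and 0.121, and the numbers were not treated as pairs. With a replicate block, 15 members were called higher and 1 lower. That was 21.1% of the members tested called higher, against 16.5% of all sequences. The difference in mean end was 0.654 nt (permutation p = 0.25), a value that a block cannot change when the groups are of equal size.

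The difference in the share starting at position 1 changed sign without control replicate 1 (-0.0915 to 0.460 percentage points over left-out libraries), as did that at position 3 (-0.311 to 0.0876), and the log2 ratio of 5' to 3' reads did so without experimental replicate 1 (-0.675 to 0.341). Of members not called, the log2 fold change of GCC-1 1-35 was 0.35 with no filter and ranged from -0.58 to 0.57 (positive when experimental replicate 3 was left out) over left-out libraries. That of GCC-2/GCC-3 1-31 ranged from -0.72 to 1.095 (negative when control replicate 3 or experimental replicate 2 was left out), and that of TCC-1 1-32 from -0.43 (experimental replicate 2 left out) to 1.38. The median log2 fold change of all sequences was 0.0112 with median-of-ratios factors. TCC and 3' reads were too few for more than large differences to be seen.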
